A study of Mus musculus with 19 samples.

Results

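The effect of diabetes on the transcripts of sciatic nerve was read from 9 of the 19 arrays of the study, those of mice that did not receive rosiglitazone. The 5 diabetic vehicle arrays, here DV706 to DV710 after the numbers in their titles, came from DBA/2J mice made diabetic with STZ (streptozotocin, a toxin of pancreatic beta cells) and given vehicle. The 4 control vehicle arrays, CV702 to CV705, came from non-diabetic DBA/2J mice that the titles call vehicle-treated and whose treatment entry reads None. The other arrays, 5 from diabetic and 5 from control mice given rosiglitazone, entered only the estimate of the spread and 1 comparison at the end. Each array stands for 1 mouse, and the authors had removed 1 control array after quality control. The labels used here give neither age nor the time after STZ. Every gene was examined, 13460 with a signal above a set floor out of 18193 with a symbol, and for each the question was whether the difference held in each diabetic array, DV708, DV709 and DV710 among them.

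Sciatic nerve holds axons whose cell bodies lie in ganglia and spinal cord, Schwann cells that wrap them in myelin, fibroblasts that secrete collagen, and small vessels lined by endothelium. In diabetes the nerve takes up glucose without needing insulin, and high glucose is known to load the polyol pathway, mitochondria and the endoplasmic reticulum of nerve cells and to damage the small vessels of the endoneurium. The endoplasmic reticulum is where secreted proteins such as collagens are folded, and its chaperones are induced together when unfolded protein builds up.

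The tissue and the RNA of the 9 arrays were checked first. Mbp, a structural protein of myelin, was high in every vehicle array, which matched the label. It lay between 14.19 and 14.44 in diabetic vehicle arrays, against 14.17 to 14.32 in control vehicle arrays. These are log2 intensities, the scale of every level below. Mag, another myelin gene, read 8.91, 8.02, 9.24, 9.41 and 9.45 in DV706 to DV710, against 8.97 to 9.78 in control vehicle arrays. Sensory neuron transcripts divided the diabetic arrays. Isl1, which specifies sensory neurons, read 5.21, 6.04, 11.35, 3.97 and 10.91 in DV706 to DV710, against 10.26, 10.95, 10.46 and 10.11 in CV702 to CV705. DV706, DV707 and DV709 were thus far below every control vehicle array, while DV708 and DV710 were close to or above them. Sensory cell bodies lie in ganglia, outside the nerve that the label names, and Isl1 was high in every control vehicle array. Under rosiglitazone a control array read 6.41 and a diabetic array 3.83. Low Isl1 is not read here as a loss in diabetic nerve. Neither such a loss nor the presence of ganglion tissue was tested. RNA integrity also differed. The 3' probe set of the Gapdh control exceeded its 5' probe set by 3.71 and 4.38 in DV706 and DV707, by 1.09, 1.24 and 1.14 in DV708, DV709 and DV710, and by 1.11 to 1.37 in the control vehicle arrays. The group means were 2.31 ± 1.60 in diabetic vehicle arrays (SD, n = 5) and 1.23 ± 0.11 in control vehicle arrays (SD, n = 4), with a two-sided exact permutation p = 0.405 (adjusted p = 0.405 over 2 measures). For beta-actin the same difference averaged 1.75 ± 1.05 in diabetic vehicle arrays (SD, n = 5) and 0.69 ± 0.09 in control vehicle arrays (SD, n = 4), exact permutation p = 0.0714 (adjusted p = 0.143). Within DV708, DV709 and DV710 it was 1.29, 0.95 and 0.75, against 0.58 to 0.80 in control vehicle arrays. DV706 and DV707 therefore stand apart, and the medians of gene lists and the main genes are also given without them. The part of RNA integrity and of neuronal tissue in these results was not tested.

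**Figure D1:**
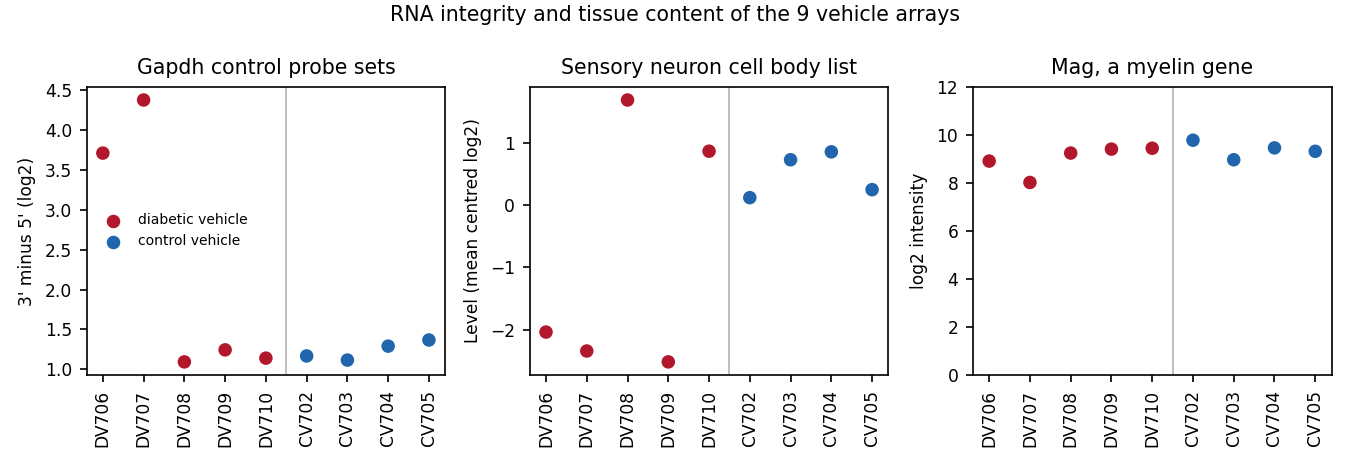
State of the 9 vehicle arrays. The points are single arrays, diabetic vehicle in red and control vehicle in blue, for the Gapdh 3' minus 5' difference (log2), the level of a list of sensory neuron cell body genes (mean centred log2) and the myelin gene Mag (log2 intensity). DV706 and DV707 have Gapdh differences of 3.71 and 4.38 against at most 1.37 elsewhere, and the neuron level is lowest in DV709 at -2.52.

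No gene passed the test. In limma with Benjamini-Hochberg adjustment over 13460 genes, 0 had an adjusted p under 0.05 (0% of the genes tested), and the smallest adjusted p, 0.238, was shared by 1048 genes. At an unadjusted limma p under 0.05 there were 2439 genes, or 18.1% of those tested, of which 1444 (10.7%) were higher and 995 (7.39%) lower in diabetic vehicle nerves. That number depended on DV706 and DV707: without them, 606 genes (4.50%) had an unadjusted p under 0.05, and the smallest adjusted p was 0.961. A limma fit on the 9 vehicle arrays alone gave 986 higher and 681 lower genes at an unadjusted p under 0.05. Single arrays mattered too. Leaving out DV706 gave 750 higher and 473 lower genes at an unadjusted p under 0.05, leaving out DV707 823 and 565, leaving out DV710 2322 and 1610, and leaving out CV705 883 and 607. Without DV710, 4 genes had an adjusted limma p under 0.05, namely Poc5, Ccl7, Srpx, a secreted matrix protein, and Pole4 (0.0498 for each). Over all genes the median log2 difference was 0.03, with 52.9% of genes above 0 and 47.1% below. What follows is a ranking with values, and every difference stands without an adjusted call.

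A stricter description asks whether all 5 diabetic vehicle arrays lie beyond all 4 control vehicle arrays. They lay above in 354 genes (2.63% of those tested) and below in 327 genes (2.43%). Leaving out DV710 raised these numbers to 1359 and 834, and leaving out DV708, DV709 or CV702 raised the first to 545, 559 and 626, and DV709 or CV703 the second to 624 and 517. In 38 of the 354 and in 41 of the 327 the mean difference was at least 1 log2 unit. DV708, DV709 and DV710 alone were above every control array in 557 genes (4.14%) and below in 516 (3.83%). The size of the difference was smaller in them. For the 354 higher genes the median difference from the control mean was 0.80 in DV706 and DV707 and 0.34 in DV708, DV709 and DV710, and for the 327 lower genes it was -0.72 and -0.32.

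Most of the genes ranked by p did not hold in every diabetic array. Of the 1444 higher genes at an unadjusted p under 0.05, 314 (21.7%) had groups without overlap. Such genes lay above the control range in DV706 for 98.5%, in DV707 for 97.3%, in DV708 for 80.5%, in DV709 for 84.2% and in DV710 for 35.8%. The same shares over all tested genes were 42.3%, 43.4%, 34.9%, 37.3% and 21.1%. Of the 995 lower genes, 258 (25.9%) had groups without overlap, and the shares below the control range were 98.8%, 96.5%, 87.2%, 70.1% and 44.9% in the same order of arrays, against 37.5%, 37.4%, 30.8%, 28.8% and 21.8% of all tested genes. In this ranking DV710 was the diabetic array nearest the controls, and DV706 the one most often outside their range. Because these arrays gave the p-values, the shares describe the ranking and are no test of it. DV708, DV709 and DV710 all lay on the same side of the control mean as the group difference in 915 of the 1444 higher and 680 of the 995 lower genes.

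**Figure D2:**
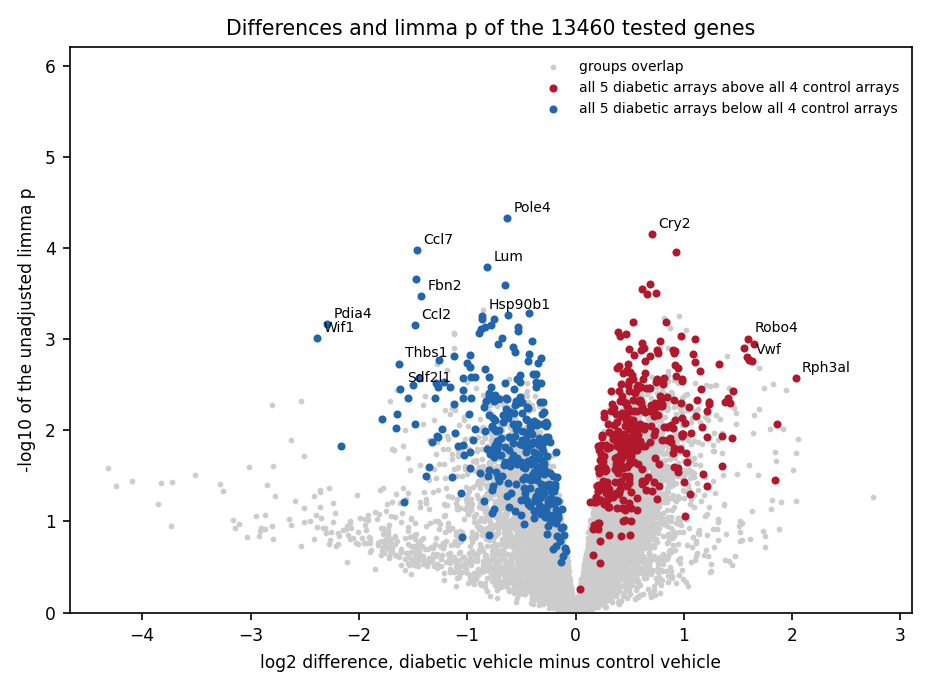
Ranking of the tested genes. The x axis gives the log2 difference, diabetic vehicle minus control vehicle, and the y axis -log10 of the unadjusted limma p. Grey points are genes whose groups overlap, and red and blue points the 354 higher and 327 lower genes whose groups do not. They are spread over most of the range of p.

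The gene with the smallest p among higher genes, and the second of all, was Cry2, which encodes a repressor of the circadian clock. Cry2 read 10.23, 10.21, 10.43, 10.43 and 10.10 in DV706 to DV710, against 9.36, 9.43, 9.85 and 9.66 in CV702 to CV705. The groups did not overlap, and DV708 and DV709 were the highest arrays. The difference was 0.71 ± 0.14 (SE, limma adjusted p = 0.238), and it was 0.75 without DV706 and DV707. The difference was thus as large in DV708, DV709 and DV710 as in all diabetic arrays. The first of all by p was Pole4, a small subunit of DNA polymerase epsilon, at 10.25, 10.06, 10.37, 10.42 and 10.62 in DV706 to DV710, against 11.06, 11.01, 10.96 and 10.88 in CV702 to CV705. Its difference was -0.63 ± 0.12 (SE, limma adjusted p = 0.238), but only 1 of its 3 probe sets lay in that direction.

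Among the chaperones and folding enzymes of the endoplasmic reticulum, 24 of 29 tested genes lay lower in diabetic vehicle nerves and 5 higher, with a median log2 difference of -0.27 against 0.03 for all genes. None of the 29 passed the adjusted test. 7 of them were below every control array in all 5 diabetic arrays, Dnajb11, Edem1, Hsp90b1, Manf, Pdia4, Pdia6 and Sdf2l1 (24.1%, against 2.43% of all tested genes), and 2, Ero1a and Ero1b, were above. Per diabetic array the median of the list was -0.51, -0.31, -0.29, -0.09 and -0.14 relative to the control mean in DV706 to DV710, while the control arrays ran from -0.13 to 0.19. DV709 therefore lay within the control range by the list median. By the list level, the mean of the members after each was centred, the diabetic arrays were -0.47, -0.35, -0.23, 0.017 and 0.023 in DV706 to DV710, against 0.13, 0.064, 0.16 and 0.42 in CV702 to CV705, so that all 5 diabetic arrays were below every control array. Without DV706 and DV707 the median was -0.17, with 24 of 29 genes lower. In DV708 and DV710 3 of the 29 genes lay above the control mean, and in DV709 9 did.

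The ER stress response element, CCAAT and CCACG with 9 bases of any kind between them, is the sequence through which ATF6 and XBP1 are known to induce chaperone genes. It was searched on both strands of RefSeq promoter windows (GRCm38.p6, 250 bases before to 50 after each start). It occurred in 8 of 25 listed genes with a window (32.0%), namely Calr, Canx, Creld2, Dnajc3, Ero1b, Hsp90b1, Hspa5 and Pdia6, and in 0.137% of all 27025 genes with a window. The windows of 4 are shown because these genes share the element but not the direction or size of their difference. Capitals mark the fixed letters of the element, on either strand, and the windows are chr10:86705513-86705676 (minus strand), chr12:17266471-17266529 (plus), chr2:34772005-34772063 (plus) and chr13:12565662-12565720 (plus).
Hsp90b1: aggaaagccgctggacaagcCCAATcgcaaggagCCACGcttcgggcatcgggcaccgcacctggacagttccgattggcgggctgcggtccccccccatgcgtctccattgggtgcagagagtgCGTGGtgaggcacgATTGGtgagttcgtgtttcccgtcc
Pdia6: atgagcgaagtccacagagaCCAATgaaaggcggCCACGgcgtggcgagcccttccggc
Hspa5: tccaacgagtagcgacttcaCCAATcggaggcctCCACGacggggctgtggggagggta
Ero1b: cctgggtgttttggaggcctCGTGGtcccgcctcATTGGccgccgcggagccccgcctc
Hsp90b1, with 2 copies, and Pdia6, with 1, were below every control array. Hspa5, with 1 copy, overlapped with the controls. Ero1b, with 1 copy, lay above them. A match is a description of the letters in the window.

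Hsp90b1, the chaperone GRP94, read 10.98, 11.10, 11.53, 11.88 and 11.95 in DV706 to DV710, against 12.26, 12.27, 12.32 and 12.54 in CV702 to CV705. All diabetic arrays were lower, with DV706 and DV707 lowest. Its difference of -0.86 ± 0.20 (SE, limma adjusted p = 0.238) was -0.56 without DV706 and DV707. Pdia4, a protein disulfide isomerase, had the second most negative difference among genes without overlap: 6.44, 6.13, 7.22, 7.60 and 9.11 in DV706 to DV710, against 9.18, 9.85, 9.20 and 10.16 in CV702 to CV705. Here DV710 came within 0.07 of the lowest control array, and the mean difference of -2.29 ± 0.55 (SE, limma adjusted p = 0.238) was -1.62 without DV706 and DV707. Only 1 of the 2 probe sets of Pdia4 lay in that direction. Sdf2l1, which works with chaperones in the same compartment, read 6.88, 7.30, 7.59, 8.29 and 8.77 in DV706 to DV710, against 8.92, 9.19, 9.17 and 10.26 in CV702 to CV705, a difference of -1.62 ± 0.48 (SE, limma adjusted p = 0.238). As with Pdia4, the 5 diabetic arrays did not overlap with the controls, and DV710 was nearest to them.

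Other members differed as follows. Manf, a secreted protein of the reticulum, differed by -0.71, Edem1, which helps to dispose of misfolded glycoproteins, by -0.62, the disulfide isomerase Pdia6 by -0.57 and the co-chaperone Dnajb11 by -0.55. Hspa5, the main chaperone BiP, read 12.41, 12.67, 12.73, 12.76 and 12.68 in DV706 to DV710, against 13.00, 12.72, 12.76 and 13.21 in CV702 to CV705, so that its groups overlapped, with a difference of -0.27 ± 0.14 (SE, limma adjusted p = 0.301). Of the other genes with the element, Creld2 differed by -0.54, Dnajc3 by -0.29, Calr by -0.25 and Canx by -0.15, all with groups that overlapped. Other Canx probe sets differed by -1.46 and 0.30, at mean levels of 9.37 and 9.75. The oxidases Ero1b and Ero1a, which drive disulfide formation, differed by 0.47 and 0.22, and for each 2 of 3 probe sets shared the direction, while the mean of the probe sets of Ero1b differed by -0.05. Pdia3, a further disulfide isomerase, differed by -1.11, and by -0.48 without DV706 and DV707, with groups that overlapped.

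Endothelial markers lay higher in 23 of 26 tested genes, with a median difference of 0.68, and 7 were above every control array in all 5 diabetic arrays (26.9%, against 2.63% of all tested genes): Clec14a, Erg, Mmrn2, Nos3, Rasip1, Robo4 and Vwf. None passed the adjusted test. In these bulk samples more cells of a type and more RNA per cell cannot be told apart, here or for any group below. The list median per diabetic array was 1.31 and 1.01 in DV706 and DV707, and -0.02, 0.55 and 0.53 in DV708, DV709 and DV710, against -0.13 to 0.21 in the control arrays. The list as a whole therefore did not hold in DV708, although 7 members did, and its median without DV706 and DV707 was 0.38. It was 0.26 without the 5 arrays of low neuron level (DV706, DV707, DV709 and 2 of the rosiglitazone arrays). With the neuron level as a covariate it was 0.41.

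Vwf, the von Willebrand factor that endothelium stores and secretes, read 13.12, 12.87, 11.29, 11.24 and 11.57 in DV706 to DV710, against 10.49, 10.38, 10.82 and 9.95 in CV702 to CV705. All diabetic arrays exceeded the controls, with DV706 and DV707 more than 1 unit above the rest. Its difference was 1.61 ± 0.43 (SE), a 3.04-fold ratio (limma adjusted p = 0.238), and was 0.95 without DV706 and DV707. Robo4, an endothelial guidance receptor, read 10.98, 10.56, 8.77, 9.95 and 9.06 in DV706 to DV710, against 8.48, 8.63, 7.81 and 8.14 in CV702 to CV705. Erg, a transcription factor of endothelial identity, read 9.10, 9.19, 6.94, 7.92 and 7.09 in DV706 to DV710, against 6.50, 6.82, 6.12 and 6.24 in CV702 to CV705. In both, DV708 was the diabetic array nearest the controls. Robo4 differed by 1.60 ± 0.40 (SE) and Erg by 1.63 ± 0.44 (SE), each with an limma adjusted p of 0.238.

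Other members followed with smaller gaps: Clec14a and Mmrn2, both proteins of the endothelial surface and matrix, differed by 1.41 and 1.33, the endothelial nitric oxide synthase Nos3 by 0.95 and Rasip1, needed for vessel lumens, by 0.90. Without DV706 and DV707 they differed by 0.68, 0.74, 0.35 and 0.66. Not all defining markers lay higher. Cdh5, the cadherin of endothelial junctions, read 9.24, 9.23, 8.83, 9.13 and 9.03 in DV706 to DV710, against 9.46, 9.07, 9.19 and 9.27 in CV702 to CV705, a difference of -0.16, and Pecam1, a junction protein, differed by 0.62 with groups that overlapped. Several of the highest-ranked genes outside the list are also known from endothelium or blood lineages. Tal1, a transcription factor of both, read 11.10, 10.54, 7.96, 8.60 and 8.52 in DV706 to DV710, against 7.26, 7.70, 7.45 and 7.52 in CV702 to CV705, a difference of 1.86 ± 0.62 (SE, limma adjusted p = 0.238). Adgrf5, an adhesion receptor of lung and vessels, differed by 1.58, Gp1bb, a subunit of the platelet receptor for von Willebrand factor, by 1.65, Zfpm1, a partner of GATA factors, by 1.46 and the adenylyl cyclase Adcy4 by 1.24. All 5 had groups without overlap, and without DV706 and DV707 they differed by 0.69 to 1.06. Pericyte and smooth muscle markers did not share the pattern: 11 of 17 lay higher with a median of 0.25 (0.15 without DV706 and DV707), but the 2 without overlap were lower (11.8%, against 2.43% of all tested genes). These were Pdgfrb, the pericyte growth factor receptor, by -0.63 and Tagln, a smooth muscle actin-binding protein, by -0.50.

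**Figure D3:**
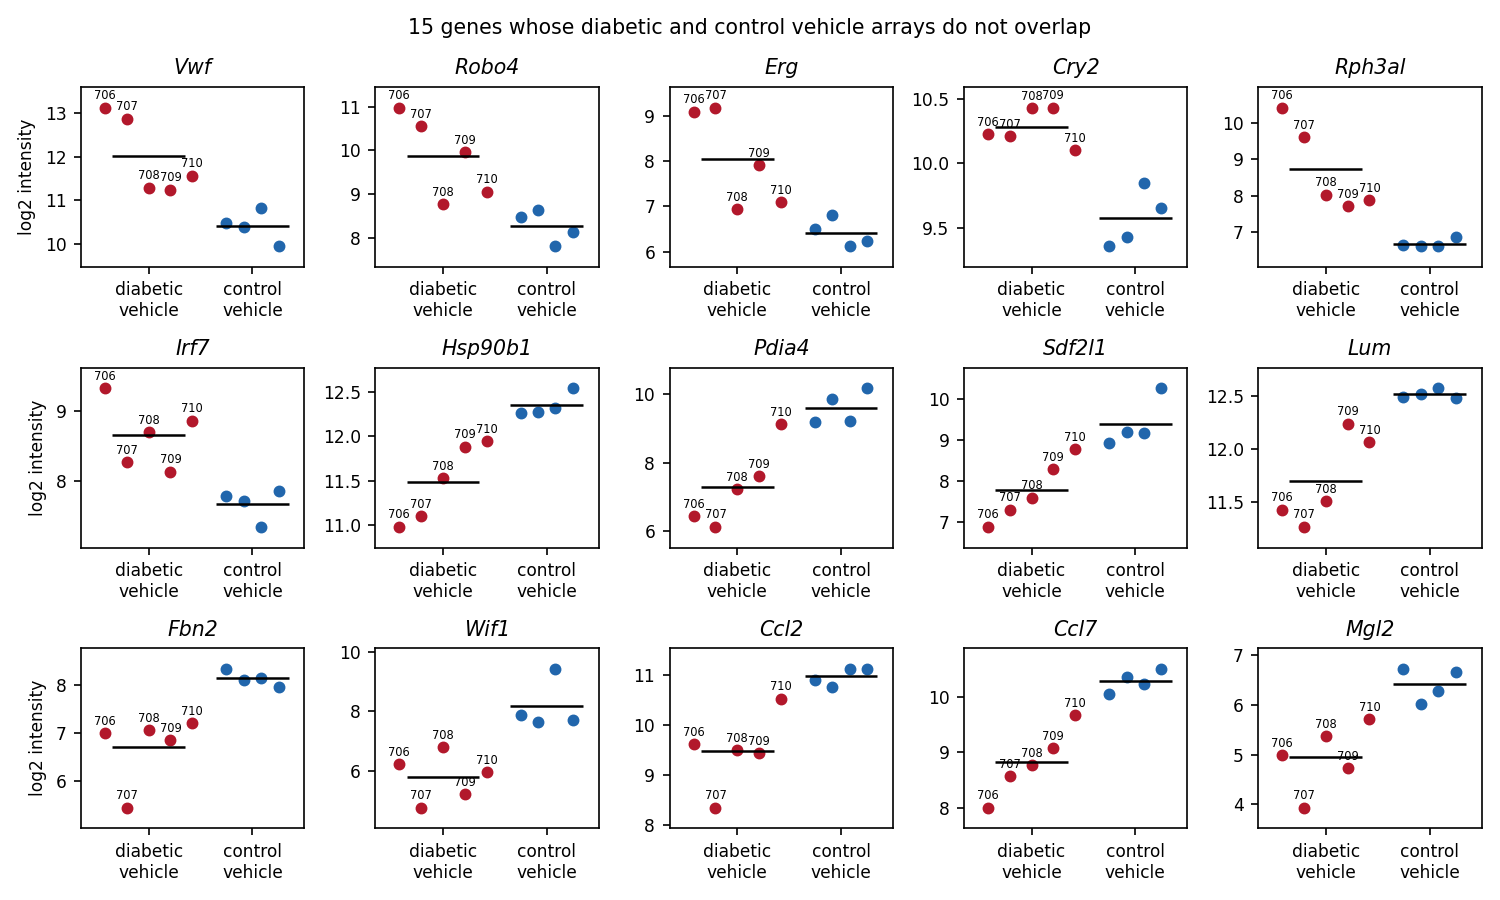
Levels of 15 genes whose groups do not overlap, in log2 intensity. Each point is 1 array, diabetic vehicle on the left with its number and control vehicle on the right, and the line is the group mean; the y axes differ between panels. Cry2 has similar levels in DV706 to DV710, whereas Vwf, Robo4, Erg and Rph3al are highest in DV706 and DV707.

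Genes of the extracellular matrix lay lower in part. Of 27 collagens 16 were lower and 11 higher with a median difference of -0.06, and 4 were below every control array in all diabetic arrays (14.8%, against 2.43% of all tested genes), Col11a1, Col12a1, Col1a1 and Col3a1. The list median was 0.31 and 0.12 in DV706 and DV707 and -0.46, -0.05 and -0.31 in DV708, DV709 and DV710, against -0.02 to 0.02 in control arrays, so the arrays with the high Gapdh difference lay on the other side of 0. Without them 23 of 27 collagens were lower, with a median of -0.24. Fibroblast markers were lower in 19 of 23 (median -0.19), and without DV706 and DV707 in 23 of 23 (median -0.26). Their list median was 0.003, 0.05, -0.42, -0.19 and -0.03 in DV706 to DV710, against -0.25 to 0.15 in control arrays. DV708 alone therefore lay outside the control range, and in DV710 11 of 23 members lay above the control mean. No member of either list passed the adjusted test.

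Col1a1, the main fibrillar collagen chain, read 13.34, 13.08, 12.97, 13.34 and 13.11 in DV706 to DV710, against 13.60, 13.52, 13.47 and 13.54 in CV702 to CV705. Col3a1, a fibrillar collagen of soft tissue, read 13.26, 12.98, 13.06, 13.41 and 13.40 in DV706 to DV710, against 13.57, 13.62, 13.57 and 13.71 in CV702 to CV705. Both were lower in every diabetic array, by -0.36 ± 0.10 (SE) and -0.40 ± 0.10 (SE), limma adjusted p = 0.238 each. Lumican, Lum, a small proteoglycan that spaces collagen fibrils, had the fifth smallest p of all: 11.43, 11.27, 11.51, 12.24 and 12.06 in DV706 to DV710, against 12.49, 12.52, 12.57 and 12.48 in CV702 to CV705. Its control arrays lay close together and every diabetic array was below them, with a difference of -0.82 ± 0.17 (SE, limma adjusted p = 0.238) and of -0.58 without DV706 and DV707. The collagen chaperone Serpinh1 differed by -0.93 and the collagen prolyl hydroxylase P4ha1 by -0.96, both without overlap. They were 8.33% of 24 collagen folding, processing and crosslinking genes, against 2.43% of all tested genes.

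Of 29 matrix glycoprotein and elastic fibre genes 17 were lower and 12 higher, with a median of -0.06 (-0.24 without DV706 and DV707). 3 were below every control array in all diabetic arrays, Fbn2, Thbs1 and Vcan (10.3%, against 2.43% of all tested genes), and 1 was above, Ltbp2 (3.45%, against 2.63%). Fbn2, a fibrillin of elastic fibres, read 7.0, 5.45, 7.06, 6.86 and 7.21 in DV706 to DV710, against 8.34, 8.12, 8.15 and 7.97 in CV702 to CV705. The gap between the groups, 0.76 log2 units, was among the widest of all lower genes, and the difference was -1.43 ± 0.32 (SE, limma adjusted p = 0.238), or -1.10 in DV708, DV709 and DV710. Thbs1, thrombospondin 1, an inhibitor of vessel growth and activator of TGF-beta, read 7.22, 8.93, 7.92, 9.59 and 9.55 in DV706 to DV710, against 10.24, 10.65, 10.07 and 10.14 in CV702 to CV705. Every diabetic array was lower, DV706 and DV708 most. Vcan, the large proteoglycan versican, differed by -0.87 and by -1.07 without DV706 and DV707, although 5 of its 8 probe sets shared the direction. Among the other matrix lists the collagen Col11a1 differed by -0.80, Col12a1 by -0.98, with 1 of 4 probe sets in that direction, and Timp1, an inhibitor of matrix proteinases, by -0.80. In the other direction Ltbp2, a fibrillin-binding protein, differed by 1.44, and Lama3, a laminin chain of basement membranes, by 1.56, both above every control array.

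The most negative difference among genes without overlap was that of Wif1, a secreted inhibitor of WNT proteins. Wif1 read 6.22, 4.75, 6.80, 5.21 and 5.94 in DV706 to DV710, against 7.89, 7.63, 9.43 and 7.72 in CV702 to CV705. DV707 and DV709 were lowest, and CV704 lay apart from the other controls. The difference was -2.39 ± 0.60 (SE, limma adjusted p = 0.238) and -2.19 without DV706 and DV707.

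Chemokines and other secreted signals of inflammation included several lower genes. Of 15 CC chemokines 9 were lower and 6 higher with a median of -0.22 (-0.34 without DV706 and DV707). The list median was -0.44, -0.10, -0.40, -1.02 and 0.40 in DV706 to DV710, against -0.08 to 0.30 in control arrays. DV710 thus lay above every control array and the other diabetic arrays below. Ccl2 and Ccl7, which attract monocytes through the receptor CCR2, were below every control array in all 5 diabetic arrays (13.3%, against 2.43% of all tested genes). Ccl7 had the third smallest p: 8.01, 8.57, 8.77, 9.07 and 9.68 in DV706 to DV710, against 10.06, 10.35, 10.23 and 10.50 in CV702 to CV705. Ccl2 read 9.61, 8.36, 9.50, 9.44 and 10.53 in DV706 to DV710, against 10.89, 10.77, 11.11 and 11.11 in CV702 to CV705. DV710 was the diabetic array nearest the controls in both. Ccl7 differed by -1.46 ± 0.29 (SE) and Ccl2 by -1.48 ± 0.36 (SE), limma adjusted p = 0.238 each, and by -1.11 and -1.15 without DV706 and DV707.

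Mgl2, a lectin of tissue macrophages and dendritic cells, read 4.99, 3.94, 5.37, 4.73 and 5.72 in DV706 to DV710, against 6.72, 6.01, 6.28 and 6.66 in CV702 to CV705, a difference of -1.47 ± 0.31 (SE, limma adjusted p = 0.238). 4 of its 5 diabetic values were below 5.54, the floor that a gene's mean over arrays had to exceed, so the size of its difference rests on dim signals. The pentraxin Ptx3 and the acute phase protein Saa1, both of innate immunity, differed by -1.22 and -1.55 without overlap. The macrophage list had no gene without overlap, with 18 of 25 lower and a median of -0.21, which was -0.29 without DV706 and DV707 and 0.0041 without DV709. Its median per diabetic array was -0.66, 0.44, -0.27, -0.91 and 0.31 in DV706 to DV710, against -0.10 to 0.20 in control arrays, so the diabetic arrays lay on both sides of the controls.

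Among interferon-response genes 32 of 39 were higher, the median being 0.26, and 26 of 39 with a median of 0.12 without DV706 and DV707. 11 of them (28.2%, against 10.7% of all tested genes) had an unadjusted limma p under 0.05, all higher, and none passed the adjusted test. The list median was 0.59, 0.61, 0.19, -0.09 and 0.25 in DV706 to DV710, against -0.15 to 0.17 in control arrays, which leaves DV709 within the control range. Irf7, the transcription factor that amplifies type I interferon, read 9.32, 8.27, 8.70, 8.13 and 8.86 in DV706 to DV710, against 7.78, 7.71, 7.34 and 7.85 in CV702 to CV705. Every diabetic array was above the controls, and the difference of 0.98 ± 0.34 (SE, limma adjusted p = 0.238) was 0.89 without DV706 and DV707. Tap1, a peptide transporter of antigen presentation, was higher by 0.65, again without overlap. Irf7 and Tap1 were the only members without overlap (5.13% of the list, against 2.63% of all tested genes). Iigp1, an interferon-induced GTPase, read 11.77, 11.76, 9.21, 8.16 and 9.16 in DV706 to DV710, against 8.09, 8.45, 7.33 and 8.51 in CV702 to CV705, so DV709 overlapped with the controls. Oasl1, an antiviral protein, differed by 1.42 and Rsad2, viperin, by 0.75, both with groups that overlapped.

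The clock lists lay higher with a wide spread among controls. In the core clock 8 of 13 genes were higher (median 0.30), and among clock output genes 10 of 13 (median 0.33). These medians were 0.22 and 0.30 without DV706 and DV707, 0.13 and 0.11 with the mean of all probe sets, and 0.14 and 0.043 without the 5 arrays of low neuron level. Without CV705 the core clock median was 0.19. Only Cry2 had groups without overlap (7.69% of the core clock list and 0% of clock output, against 2.63% of all tested genes above). Per2, a clock repressor, read 8.84, 9.29, 8.67, 9.22 and 8.50 in DV706 to DV710, against 6.29, 7.0, 8.75 and 8.41 in CV702 to CV705. Dbp, a D-box-binding activator and a standard output of the clock, read 12.57, 12.60, 12.55, 12.51 and 11.97 in DV706 to DV710, against 10.60, 11.52, 12.48 and 10.08 in CV702 to CV705. CV704 lay within the range of the diabetic arrays in both genes, and in Dbp DV710 was apart from the other diabetic arrays. Arntl, the activator BMAL1, had the opposite order, with 8.19, 8.19, 8.01, 7.97 and 8.16 in DV706 to DV710, against 9.51, 8.65, 7.73 and 9.80 in CV702 to CV705, and Npas2, its partner, was 7.89, 7.76, 8.14, 8.19 and 8.46 in DV706 to DV710, against 9.60, 8.69, 7.86 and 9.89 in CV702 to CV705. Per2 differed by 1.29 ± 0.38 (SE, limma adjusted p = 0.238), Dbp by 1.27 ± 0.47 (SE, adjusted p = 0.238), Per3, a further repressor, by 0.79 and Cry1, the paralog of Cry2, by 0.77, whereas Arntl and Npas2 differed by -0.82 and -0.92. Time of death is not given in the labels, and its part in these values was not tested.

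Promoter windows are shown for a pair of these genes because the E-box, CACGTG, is bound by BMAL1 and its partners and the D-box, TTATGTAA, by DBP. Both strands were searched, and the D-box and E-box do not overlap. The E-box occurred in 8.09% of all gene windows and in 2 of 11 core clock genes, Cry1 and Per1, and the D-box in 1.11% of all gene windows. Capitals mark the matches, at chr4:151044796-151044890 (minus strand) for Per3 and chr10:85185089-85185134 (minus) for Cry1.
Per3: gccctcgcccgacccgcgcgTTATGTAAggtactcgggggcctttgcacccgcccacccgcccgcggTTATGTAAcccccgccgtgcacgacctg
Cry1: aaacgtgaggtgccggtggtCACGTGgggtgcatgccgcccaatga
Per3, with 2 D-boxes, read 11.55, 11.59, 11.07, 11.10 and 10.95 in DV706 to DV710, against 10.24, 10.33, 11.25 and 10.03 in CV702 to CV705, with 3 of 6 probe sets in that direction, and Cry1 read 10.89, 11.08, 9.89, 10.03 and 9.35 in the diabetic arrays, against 9.55, 8.89, 9.23 and 10.26 in the controls. Cry1 was thus above every control array only in DV706 and DV707.

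Glucocorticoid-induced genes were higher in 16 of 22 with a median of 0.16, and in 13 of 22 with a median of 0.05 without DV706 and DV707. The median was 0.044 without CV702 and 0.30 without DV708, and no member had groups without overlap. Fkbp5, a co-chaperone induced by the glucocorticoid receptor, read 10.03, 11.29, 10.83, 11.32 and 10.36 in DV706 to DV710, against 9.12, 9.45, 10.33 and 10.06 in CV702 to CV705. DV706 overlapped with CV704 and CV705, and the difference of 1.02 ± 0.32 (SE, limma adjusted p = 0.238) was 1.09 without DV706 and DV707. Zbtb16, a transcription factor also induced by the receptor, differed by 0.98, with 1 diabetic array, DV710, within the control range.

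In metabolism the list medians were small. Of 19 genes of the tricarboxylic acid cycle and pyruvate entry 12 lay higher with a median of 0.10 (0.09 without DV706 and DV707), and 3 were above every control array in all diabetic arrays (15.8%, against 2.63% of all tested genes): Cs, citrate synthase, by 0.26 (2 of 3 probe sets in that direction, and -0.04 for the mean of its probe sets), Dlat, a subunit of pyruvate dehydrogenase, by 0.49 and Pdhx, another, by 0.45. Dlat read 10.52, 10.55, 10.48, 10.19 and 10.02 in DV706 to DV710, against 9.98, 9.92, 9.91 and 9.62 in CV702 to CV705 (limma adjusted p = 0.238). Among 70 genes of oxidative phosphorylation 43 were lower and 27 higher, with a median of -0.04, but 18 were lower and 52 higher, with a median of 0.05, without DV706 and DV707. Glycolysis had a median of -0.01 over 28 genes (0.07 without DV706 and DV707), fatty acid oxidation 0.05 over 29 (0.04) and the polyol, hexosamine and glycation list 0.04 over 16 (-0.10). In the last, Gfpt1, which admits fructose 6-phosphate to the hexosamine pathway, was below every control array by -0.46. Txnip, which glucose induces in many cells, differed by -0.28 ± 0.18 (SE, limma adjusted p = 0.394) and Pdk4, a brake on pyruvate dehydrogenase, by 0.36 ± 0.18 (SE, adjusted p = 0.284), both with overlap. The other Txnip probe set, at a mean level of 9.69, differed by -1.34.

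Of 23 genes of the insulin and IGF axis 2 were above every control array in all diabetic arrays (8.70%, against 2.63% of all tested genes) and 1 below (4.35%, against 2.43%). Igf1r, the IGF-1 receptor, read 8.12, 8.37, 8.92, 9.01 and 9.74 in DV706 to DV710, against 9.84, 9.87, 9.86 and 10.24 in CV702 to CV705, a difference of -1.12 ± 0.35 (SE, limma adjusted p = 0.238). Every diabetic array was below the controls, DV706 most and DV710 least. Other Igf1r probe sets above the floor differed by -0.22, -0.05 and 0.11, at mean levels of 9.11, 5.63 and 6.66. Akt1, a kinase below the receptors, and Foxo1, a transcription factor that it restrains, lay higher by 0.52 and 0.77, with 0.31 and 0.24 without DV706 and DV707. The other Akt1 probe set above the floor of 5.54, at a mean level of 7.52, differed by -0.57. Insr, the insulin receptor, differed by 0.60 and by 0.13 without DV706 and DV707, and Igf1 and Pparg, the receptor of rosiglitazone, differed by -0.39 and 0.74, all 3 with overlap. Cholesterol synthesis and uptake had 17 of 21 genes lower (median -0.19), but 10 of 21 (median 0.004) without DV706 and DV707. Sc5d, a late enzyme of that pathway, was below every control array by -0.64, and Idi1, an early one, by -0.77. Together they were 9.52% of the list, against 2.43% of all tested genes. Antioxidant genes were lower in 28 of 40 (median -0.12, and -0.04 without DV706 and DV707). Gpx7, a peroxidase of the endoplasmic reticulum, at -0.53 and mitochondrial Sod2 at -0.49 lay below every control array (5% of the list, against 2.43% of all tested genes). Other probe sets of Sod2 differed by 0.19, 0.16 and -0.04, at mean levels of 11.52, 10.76 and 6.68. In autophagy Ulk1, the kinase that starts it, and the protease Atg4b lay above every control array by 0.57 and 0.53, and Gabarap, a membrane protein of the autophagosome, and Wipi1 below by -0.45 and -0.21. Each pair was 6.06% of 33 autophagy genes, against 2.63% of all tested genes above and 2.43% below.

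Some of the highest and lowest ranked genes fall in none of the groups described above. Rph3al, which acts in vesicle exocytosis, had the highest difference among genes without overlap: 10.41, 9.60, 8.03, 7.72 and 7.88 in DV706 to DV710, against 6.64, 6.62, 6.63 and 6.88 in CV702 to CV705. DV708, DV709 and DV710 were all at least 0.84 above the highest control array, the widest gap of any gene, and the difference was 2.03 ± 0.58 (SE, limma adjusted p = 0.238), or 1.18 without DV706 and DV707. Aldh3b2, an aldehyde dehydrogenase, differed by 1.84 and Slc27a2, an acyl-CoA synthetase for long fatty acids, by 1.43. Slc27a2 belongs to the brown fat list, as its only member without overlap (7.69%, against 2.63% of all tested genes above). By p, Gm17586, Zfp750, a factor of epidermal differentiation, Arhgap27, a GTPase-activating protein, and the centriole protein Poc5 followed Cry2, with differences of 0.93, 0.69, 0.61 and 0.74. Gm17586 was even across diabetic nerves, at 8.0, 8.08, 7.87, 7.93 and 7.96 in DV706 to DV710, against 7.13, 7.07, 7.41 and 6.55 in CV702 to CV705. Ap5b1, a subunit of an endosomal adaptor, and the zinc finger gene Zkscan14 lay higher by 0.73 and 0.61 with wide gaps.

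Of the remaining lower genes, Dapl1, of the death-associated protein family, differed by -2.17, the paracaspase Malt1 by -1.78, the transporter Slc16a6 by -1.65, the homeodomain factor Pknox1 by -1.64, Dlk1, an inhibitor of fat cell formation, by -1.58 and the dehydrogenase Dhdh by -1.50. Other probe sets of Malt1 differed by 0.16 and -1.15, at mean levels of 7.58 and 5.93. Malt1 read 5.30, 5.60, 7.74, 8.44 and 8.37 in DV706 to DV710, against 8.82, 8.62, 8.86 and 9.20 in CV702 to CV705, and Pknox1 read 6.06, 5.46, 8.13, 8.48 and 8.56 in the diabetic arrays, against 8.82, 8.71, 9.02 and 9.37 in the controls. In both, DV706 and DV707 were more than 2 units below the other diabetic arrays, and the differences without them were -0.69 and -0.59. Dapl1 and Slc16a6 instead were low in the 3 arrays with low neuron levels: Dapl1 read 6.94, 8.33, 10.24, 7.06 and 10.51 in DV706 to DV710, against 10.82, 10.86, 10.58 and 10.88 in CV702 to CV705. Leaving out the 5 arrays with low neuron levels (DV706, DV707, DV709 and 2 of the rosiglitazone arrays), Dapl1 differed by -0.41 and Slc16a6 by -0.22. The peroxisomal reductase Decr2, the cyclotransferase Ggact and the noncoding Snhg14 lay lower by -1.30, -1.28 and -0.84, and Tvp23b, a Golgi protein, by -0.65 with nearly the same value, -0.56, without DV706 and DV707.

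Genes of neurons and their satellite glia had wide differences but no member without overlap. As with Isl1, lower cell body transcripts are not read here as a loss in diabetic nerve. Sensory neuron cell body genes were lower in 20 of 22 with a median of -1.46 (-0.55 without DV706 and DV707). Axonal cytoskeleton genes were lower in 22 of 26 with a median of -0.65, which was -0.04 without DV706 and DV707, and satellite glia genes in 13 of 15 with a median of -0.53 (-0.20). Without the 5 arrays of low neuron level the axonal median was 0.48 and the satellite glia median 0.14. Fabp7, a marker of satellite glia, read 5.31, 4.24, 11.82, 5.38 and 11.77 in DV706 to DV710, against 11.82, 12.17, 11.52 and 11.68 in CV702 to CV705, so DV708 and DV710 lay within the control range. Myelin and myelinating Schwann cell genes were lower in 18 of 28 with a median of -0.18 (-0.06 without DV706 and DV707). Mbp differed by 0.04 ± 0.10 (SE, limma adjusted p = 0.828) and Pmp22, a further myelin protein, by 0.01 ± 0.09 (SE, adjusted p = 0.969). Other Mbp probe sets above the floor ran from -1.69, at a mean level of 12.12, to 0.73, at 8.97. Repair and immature Schwann cell genes were lower in 21 of 25 (median -0.43, -0.23 without DV706 and DV707 and -0.08 without the 5 arrays of low neuron level). Ngfr, the low-affinity neurotrophin receptor, differed by -0.35, Erbb3, the neuregulin receptor, lay below every control array by -0.50 and Notch1 above by 0.32.

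Other tissue markers varied between animals. The level of adipocyte markers ran from -3.51 to 0.37 in diabetic vehicle arrays and from -2.16 to 0.77 in control vehicle arrays, and that of skeletal muscle from -1.61 to 1.99 in diabetic vehicle arrays and from -1.58 to -0.003 in control vehicle arrays. Mast cell markers were higher in 10 of 13 with a median of 0.72 (0.52 without DV706 and DV707, 0.43 without CV702), with no gene without overlap; Ms4a2, a subunit of the mast cell IgE receptor, differed by 1.68 with overlap. Cytosolic heat shock genes were lower in 17 of 20 (median -0.22, and -0.16 without DV706 and DV707), proteasome genes in 21 of 32 (median -0.15, and 0.05 without DV706 and DV707) and cytosolic ribosomal proteins in 26 of 39 (median -0.05, and -0.02). For heat shock genes CV705 lay apart, with a list median of 0.40 against -0.18 to -0.08 in the other control arrays. Without CV705 the median difference of these heat shock genes was -0.09. Oligodendrocyte and astrocyte markers were lower in 13 of 14 (median -0.82, and -0.18 without DV706 and DV707). Genes of the node of Ranvier were lower in 12 of 21 (median -0.19, and 0.06). Neutrophil markers were lower in 8 of 9 (median -0.55 with and without both arrays), but their median was 0.73 without CV703 and -1.06 without DV710. Skeletal muscle genes were higher in 29 of 36 (median 0.56), and in 21 of 36 (median 0.15) without DV706 and DV707. Without DV706 alone the muscle median was 0.10. The part of adipose, muscle and other tissue in the differences was not tested.

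The medians of the remaining lists lay between -0.15 and 0.17, and many of them turned sign with the arrays used. Each is given with its value without DV706 and DV707 in brackets. Collagen folding, processing and crosslinking genes had a median of -0.15 (-0.14), basement membrane genes -0.15 (-0.11), CXC and CX3C chemokines -0.15 (-0.42), mitochondrial ribosomal proteins -0.08 (0.06), T and NK cell markers -0.07 (-0.15), adipocyte markers -0.07 (-0.71) and the insulin and IGF axis -0.06 (-0.04). Matrix metalloproteinases and their inhibitors had a median of -0.05 (-0.22), brown fat genes -0.04 (0.10), MHC class II genes -0.02 (-0.16), red blood cell genes -0.01 (-0.49), fatty acid and triglyceride synthesis -0.01 (-0.0098) and autophagy genes -0.01 (0.02). Above 0 were small leucine-rich proteoglycans at 0.05 (-0.12), cell division genes at 0.08 (-0.0078), complement at 0.09 (-0.09), immediate early genes at 0.10 (0.05), perineurial markers at 0.10 (0.20), the integrated stress response at 0.16 (0.10), and inflammatory cytokines and regulators at 0.17 (-0.13). Of all 52 lists the median changed sign without DV706 and DV707 in 13, and on leaving out 1 or another of the 9 vehicle arrays in 21.

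**Figure D4:**
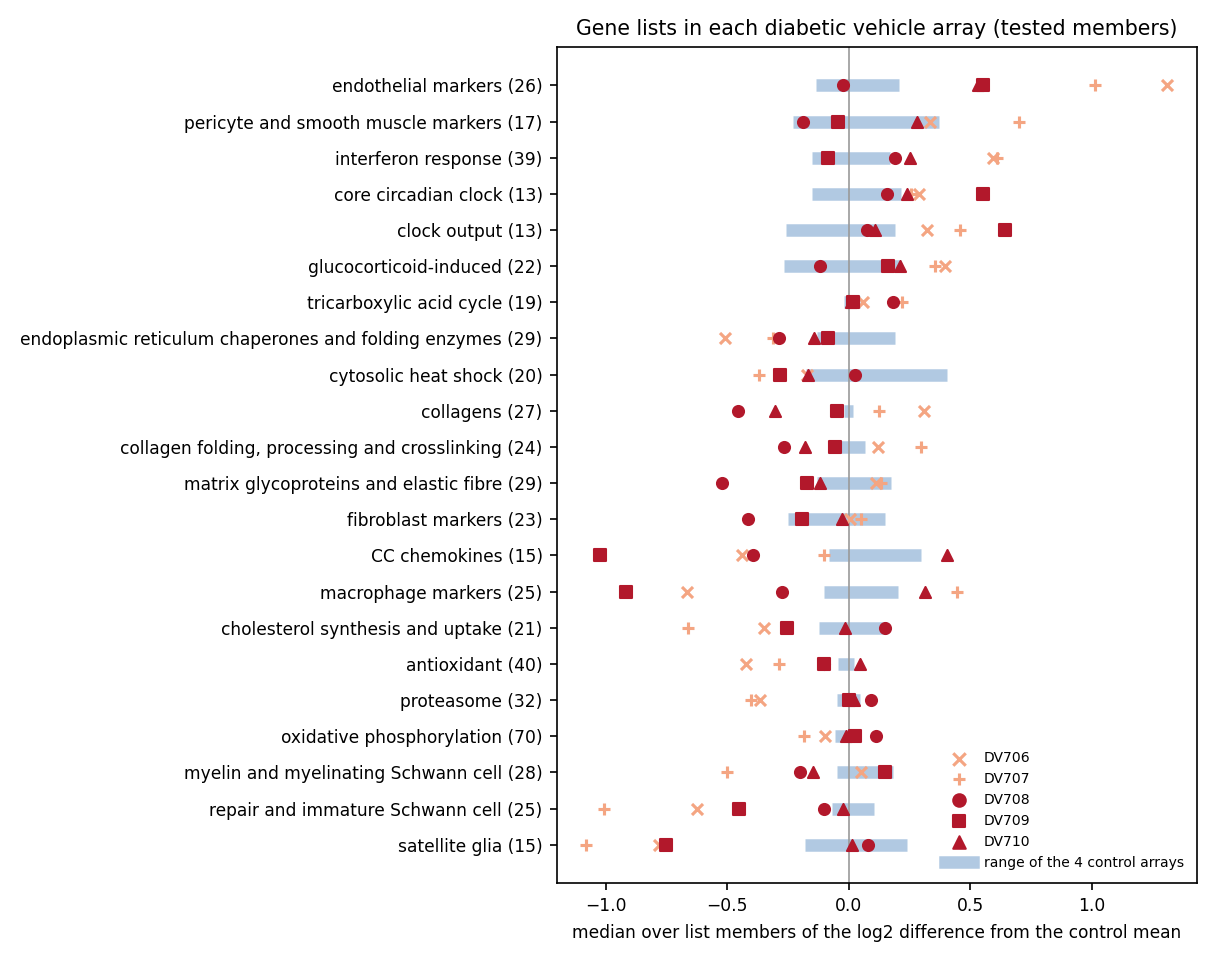
Gene lists in each diabetic vehicle array. Each symbol is the median over a list's tested genes (their number in brackets) of the log2 difference between that array and the control mean, and the blue bar is the range of the 4 control arrays. For endothelial markers 4 of the 5 diabetic arrays lie above the bar and DV708 within it, and for chaperones of the endoplasmic reticulum DV709 lies within it.

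The diabetic and control arrays under rosiglitazone, an agonist of PPAR gamma, share no array with the vehicle comparison. Their Gapdh 3' minus 5' difference was highest in a diabetic array, at 1.75, and ran from 1.00 to 1.34 in the others. Its part in this comparison was not tested. Of the 354 genes higher in every diabetic vehicle array, 245 (69.2%) also lay above 0 under rosiglitazone, against 51.7% of all tested genes. Of the 327 lower genes 241 (73.7%) lay below 0, against 48.3%. Those differences were small, with medians of 0.06 and -0.07, against 0.52 and -0.49 under vehicle. Groups without overlap on the same side under rosiglitazone were found for 0 of the 354 genes and for 3 of the 327. Over all tested genes, 0.178% had such groups above and 0.223% below. They were St3gal3, a sialyltransferase, Stx16, a syntaxin of the Golgi, and Nudt16l1, which differed under vehicle by -0.87, -0.44 and -0.17 and under rosiglitazone by -0.59, -0.29 and -0.28.

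Several leading genes had little difference under rosiglitazone. The difference there was 0.04 for Vwf, -0.05 for Robo4, 0.10 for Cry2 and 0.30 for Lum, and the endothelial list had a median of 0.02, against 0.68 under vehicle. For Ccl2 and Ccl7 it was 0.44 and 0.48, for Wif1 -0.83, for Fbn2 -0.69 and for Irf7 1.09. Per2 differed by 1.11 under rosiglitazone, where all 5 diabetic arrays were above all 5 control arrays. Chaperones of the endoplasmic reticulum had a median of -0.10, with Pdia4 at -0.61, and fibroblast markers one of 0.12. The interaction, the vehicle difference set against the one under rosiglitazone, had 0 genes at an adjusted limma p under 0.05 (smallest 0.748) and 642 genes (4.77%) at an unadjusted one, so the 2 sets of differences were not shown to differ for any gene.

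**Figure D5:**
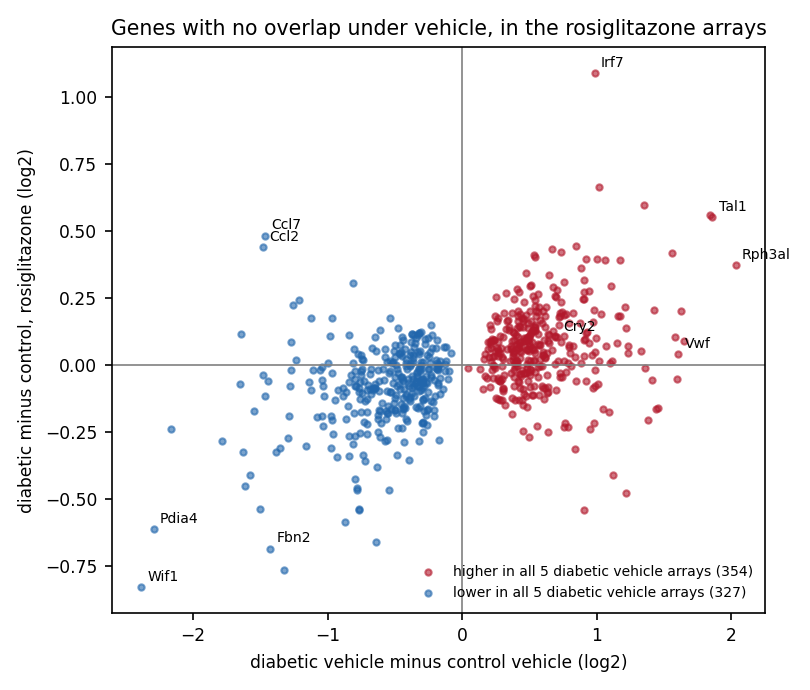
Genes whose groups do not overlap under vehicle, compared with the rosiglitazone arrays. The x axis gives the diabetic minus control difference under vehicle and the y axis that under rosiglitazone (both log2), with 354 higher genes in red and 327 lower genes in blue. The points are stretched along the x axis and lie near 0 on the y axis, with medians of 0.06 and -0.07 there.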

How the data were processed

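The deposited values are linear intensities, 1 for each probe set of an array. Per the submitters' processing notes RMA was used, which corrects background, normalizes by quantiles and summarises probes, but its version, its settings and the step back to a linear scale are not given in the sources used here. Per the labels' protocols RNA was extracted with RNeasy columns and amplified with the NuGEN Ovation system.

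The deposited intensities were put on the log2 scale. Arrays had medians of 83.3 to 101.7 in intensity (83.3 to 98.0 in the vehicle groups), vehicle arrays correlated at 0.816 to 0.984, and no 2 arrays were identical. Of 45101 probe sets, 64 controls were left out of the tests, and of the rest 34945 had 1 gene symbol in the platform annotation, 932 several and 9160 none listed. Only those with 1 symbol were named. The brightest probe set stood for each of 18193 genes, and 13460 genes with a mean above the 40th percentile of probe sets (log2 5.54) were tested. Group means of all 19 arrays were fitted with limma 3.58.1 in R 4.3.3 (lmFit, eBayes, Benjamini-Hochberg), so that all 4 groups share 1 estimate of the spread. The fit was tested on simulated data. For the 2 integrity measures all 126 splits of the arrays were enumerated (exact permutation, two-sided). A list's level in an array is the mean of its genes after each was centred on its mean over the 19 arrays.

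Genes were named by a rule: of those whose groups do not overlap, the 12 highest and 12 lowest differences and the 12 widest gaps in each direction; the 5 smallest p in each direction; up to 4 of the smallest p of each of 52 lists; and a set named in every case. Of that set Akr1b3 and Sord were not analysed here. Of the genes that the rule names, the text gives some. Others were named after their values were seen, among them Srpx, Calr, Canx, Creld2, Dnajc3, Cdh5, Pecam1, Arntl, Npas2 and the further members without overlap. The comparison, its members and the lists were chosen with earlier results of these data known. Alternatives were the filter, the summary of probe sets, an offset, renewed quantile normalization, moderated trends, array weights, covariates and left-out arrays. The number of arrays limits the precision, and counting intervals do not apply to intensities. Motifs were searched with Python 3.11.15 in RefSeq promoter windows.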

Additional observations from a re-analysis of the deposited data

Results flagged for a closer look

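Within a group, single arrays lay far from the others by Dixon's ratio of gap to range for 21 of 344 groups of values examined, and chance gives about 1 in 20. In diabetic vehicle arrays these were Dbp in DV710 (11.97, the others 12.51 to 12.60), Fbn2 in DV707 (5.45, the others 6.86 to 7.21), Hspa5 in DV706 (12.41, the others 12.67 to 12.76), Mbp in DV706 (14.44, the others 14.19 to 14.25), Pecam1 in DV708 (7.66, the others 9.09 to 9.36) and Rsad2 in DV708 (9.53, the others 10.45 to 10.74). The level of the adipocyte list in DV709 was -3.51, against -0.67 to 0.37 in the other diabetic vehicle arrays.

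In control vehicle arrays CV705 stood apart in 8 genes: Arhgap27 (6.15, the others 6.57 to 6.63), Edem1 (9.70, the others 8.92 to 9.04), Igf1r (10.24, the others 9.84 to 9.87), Manf (12.54, the others 11.71 to 11.84), Ptx3 (8.77, the others 7.79 to 7.93), Rph3al (6.88, the others 6.62 to 6.64), Slc16a6 (8.69, the others 8.43 to 8.46) and Ulk1 (9.17, the others all 9.16). CV704 stood apart in Wif1 (9.43, the others 7.63 to 7.89) and Cs (12.90, the others 12.96 to 12.97), CV703 in Canx (12.70, the others 12.82 to 12.83) and Tagln (13.49, the others 13.24 to 13.26), and CV702 in Idi1 (11.68, the others 11.42 to 11.44) and in the level of the myelin list (0.31, the others 0.05 to 0.08).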

How the results depend on the processing

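The choice of the 681 genes without overlap fixes their direction under most alternatives. Of those that could turn it, renewed quantile normalization and each covariate turned none, and with the mean of all probe sets 317 of 340 higher and 307 of 321 lower genes kept it. The number of genes at an adjusted limma p under 0.05 was 0 in each of the 12 other alternatives and 0 to 4 when single arrays were left out, the 4 without DV710. Over the single arrays left out, the genes at an unadjusted limma p under 0.05 ran from 750 to 2322 higher and 473 to 1610 lower, and the genes without overlap from 389 to 1359 higher and 363 to 834 lower. Without DV706 and DV707 the genes at an unadjusted p were 342 higher and 264 lower, and those without overlap 557 and 516. Without the 5 arrays of low neuron level they were 899 and 640, and 1456 and 1435 without overlap, where fewer arrays alone allow more such genes. With no filter on low values, which tests more genes, 2468 higher genes had an unadjusted p under 0.05 and 691 did not overlap. Array weights gave 848 higher genes, and the Gapdh difference as a covariate 424 higher and 340 lower.

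List medians that moved by more than the spread between arrays were as follows. The T and NK cell list was -0.82 with a filter at the 60th percentile. With the mean of all probe sets the core clock was 0.13, clock output 0.11, small leucine-rich proteoglycans -0.23, the tricarboxylic acid cycle 0.042 and the polyol list -0.040. Small proteoglycans were -0.14 with array weights. With the Gapdh covariate collagens were -0.26, small proteoglycans -0.14, the polyol list -0.12 and the proteasome 0.054. With the neuron covariate collagens were -0.28, small proteoglycans -0.14, the polyol list -0.11 and fatty acid oxidation -0.018. Without DV706 and DV707 the polyol list was -0.10 and the proteasome 0.048. Without the 5 arrays of low neuron level the core clock was 0.14, clock output 0.043, collagens -0.32, small proteoglycans -0.19, the polyol list -0.088, fatty acid oxidation -0.0076, the proteasome 0.075, sensory neuron cell bodies 0.82 (the list whose level chose those arrays), axonal cytoskeleton 0.48, and oligodendrocyte and astrocyte markers 0.67. Over the single arrays left out, the polyol list ran from -0.030 to 0.057 and fatty acid synthesis from -0.026 to 0.18.

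Named genes that changed sign were Ero1b (-0.053), Cs (-0.045) and Mbp (-0.13) with the mean of probe sets, Pmp22 (-0.0053) with array weights, Ngfr (0.17), Pparg (-0.12) and Mag (0.040) with the Gapdh covariate, and Ngfr (0.36), Pparg (-0.018), Mag (0.10) and Per1 (-0.026) with the neuron covariate. Without DV706 and DV707 they were Mbp (-0.0022), Pmp22 (-0.015) and Ngfr (0.15), and without the 5 arrays Isl1 (0.69), Mbp (-0.019), Ngfr (0.60), Per1 (-0.010) and Pmp22 (-0.065). Leaving out single arrays, Mbp ran from -0.0039 to 0.076, Pmp22 from -0.037 to 0.035, Igf1 from -0.73 to 0.0061 and Per1 from -0.026 to 0.37. The causes were not tested. No paired analysis was possible because the groups share no replicate number. With 5 and 4 arrays, DV706 and DV707 with a high Gapdh 3' minus 5' difference and 3 diabetic arrays low in neuronal transcripts, group differences and array differences cannot be fully told apart.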
